A study of Mus musculus with 8 samples.

Results

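The transcripts of 4 enzymes that cut proteins at or just outside the cell surface were followed across sorted mouse embryonic stem (ES) cells: the secreted gelatinase Mmp9, the membrane-anchored metalloprotease Mmp14, the membrane-anchored sheddase Adam8 and the membrane-anchored serine protease St14, also called matriptase. Members were the probes that the study's supplementary list of genes pairs with 1 of these 4 symbols. Each symbol had 1 probe, which made 4 probes of the 42006 distinct probes on the array, and all 4 were among the 29484 probes tested. The supplementary list was drawn up by the study from differences among the fractions of these same arrays, so that the differences between fractions given here describe the 4 genes and are not independent evidence for them. Samples of both clones entered that choice. Of the list, 1998 rows were read, and its further rows were not used here.

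The cells were HV ES cells (written HIV in the labels), a 129/Ola line in which the fluorescent protein Venus was placed under the control of the Hex locus, an early endodermal gene, and whose parental line expresses the BirA biotin ligase from ROSA26. Clones 5.1 and 16.1 of this line were grown for 24 h in self-renewing conditions with LIF and were separated by flow cytometry into 4 fractions on Venus (V) and on the ES cell surface antigen SSEA-1 (S). The Venus-negative fractions were V-S+ and V-S-, the Venus-positive ones V+S+ and V+S-. Each fraction had 1 sample per clone, which gave 2 samples per fraction and 8 in all. Sample RNA carried the Cy3 dye on every array and a universal mouse reference RNA carried Cy5, without a dye swap. Values are log2 ratios of the sample over the reference, or differences between such ratios.

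Pericellular proteolysis is the controlled cutting of matrix, receptors and growth factors in the space next to the cell. Metalloproteases of the MMP and ADAM families are made as inactive precursors, several of which are activated by the convertase furin, and they are held in check by tissue inhibitors (TIMPs) and other antiproteases. Mmp14 activates pro-Mmp2 at the membrane, Mmp9 degrades denatured collagen and type IV collagen, Adam8 releases the outer parts of membrane proteins, and St14 works together with prostasin (Prss8) and can activate the receptor encoded by F2rl1. Extra-embryonic endoderm, the lineage marked by Hex, lays down and remodels a basement membrane.

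The array measured each gene with 1 probe of 60 bases. The middle of each probe, from base 16 to base 45, is shown to identify what was measured, because gene names were taken from the supplementary list and not from the files.
Mmp9 probe: ctccgtgtcctgtaaatctgctgaaaccag
Mmp14 probe: gtgtacatttggaggtggaaagattgttca
Adam8 probe: ggaaaagacgtcgttcttggggtgttggga
St14 probe: gttttgctgttgccaggggtgggtatttga
The longest run of bases shared with any other probe of the array, on either strand, was 13 for Mmp9, 13 for Mmp14 and 15 for Adam8. The St14 probe shared 45 bases with a second probe, Z00044291-1, which the rows used here do not name and which contains the whole stretch shown for St14. Its values are given beside those of St14.

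RefSeq promoter sequences were at hand for Mmp14 and Adam8. The 250 bases upstream of the Mmp14 start on the plus strand of GRCm38.p6, chr14:54431348-54431597, are shown because the 4 transcripts moved together between fractions; capitals mark matches to the GC box (GGGCGG on either strand).
Mmp14 upstream: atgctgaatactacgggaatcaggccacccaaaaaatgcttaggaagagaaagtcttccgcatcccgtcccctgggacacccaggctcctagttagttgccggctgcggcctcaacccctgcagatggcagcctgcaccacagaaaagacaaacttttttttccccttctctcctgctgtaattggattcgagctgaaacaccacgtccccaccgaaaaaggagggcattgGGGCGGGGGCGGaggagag
Adam8 upstream: ccccgccttgctCCGCCCcgcggtccagtg
The Mmp14 window held 2 GC boxes, which began 19 and 13 bases before the start. The Adam8 stretch is 30 bases on the minus strand, chr7:139992580-139992609, and its GC box began 35 bases before the start. That start, at base 139992562, lies inside the annotated span of the Adam8 gene, chr7:139978932-139995207. The Adam8 stretch is therefore upstream of this start but not of the whole gene. A GC box was found in 32.7% of the 32851 promoters of the table over the same 250 bases. Neither the AP-1 letters (TGAGTCA or TGACTCA, in 4.46% of all promoters) nor the GATA letters (AGATAA or TGATAA, in 16.6%) were found in either window, on either strand. These matches describe letters in a window, not bound sites.

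All 4 probes gave a Cy3 signal well above background in every scan of every sample. The ratio of Cy3 signal to local background ranged from 6.30 to 44.6 for Mmp9, from 89.5 to 429 for Mmp14, from 34.7 to 157 for Adam8 and from 315 to 849 for St14. Over all probes the median ratio per sample was between 2.36 and 2.87, and no spot was saturated. The 4 fractions of a clone were hybridised on 1 slide and those of the other clone on another, so a difference between clones may also be one between slides, and the 2 cannot be told apart. Precision is limited by the number of arrays. In the fit without a clone term, p-values measure the spread between these 2 clones. With clone as a block, the mean difference between the clones is removed. Those p-values measure how far differences between fractions vary from clone to clone. In RNA from a sorted population, more cells that express a gene and more RNA per cell cannot be told apart.

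Mmp9 was low in both Venus-negative fractions and higher in both Venus-positive fractions. For V-S+ the log2 ratio was -2.45 for clone 5.1 and -2.05 for clone 16.1. With clone 5.1 first, V-S- gave -2.35 and -1.88, V+S+ gave -1.54 and -0.85, and V+S- gave -0.83 and 0.08. The Venus-negative samples all lay below the Venus-positive samples, and both V+S- samples lay above both V+S+ samples, although the V+S- sample of clone 5.1 was almost level with the V+S+ sample of clone 16.1. From V-S+ over V-S- and V+S+ to V+S-, the means were -2.25 ± 0.28, -2.11 ± 0.34, -1.197 ± 0.49 and -0.38 ± 0.65 (SD, n = 2).

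Mmp14 followed the same order apart from the Venus-negative pair. Again with clone 5.1 first, V-S+ gave log2 ratios of -1.97 and -1.47, V-S- gave -2.13 and -1.60, V+S+ gave -1.25 and -0.51, and V+S- gave -0.32 and 0.11. No Venus-negative sample reached the lowest Venus-positive sample, and V+S+ and V+S- did not overlap. The means were -1.72 ± 0.36, -1.87 ± 0.38, -0.88 ± 0.52 and -0.11 ± 0.31 in the same order of fractions (SD, n = 2).

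Adam8 differed least between the clones. V-S+ gave log2 ratios of -2.08 and -2.17, V-S- gave -2.20 and -2.14, V+S+ gave -1.10 and -0.86, and V+S- gave -0.54 and -0.72. The Venus-negative samples formed a narrow band about 1 log2 unit below the lowest Venus-positive sample, and V+S+ and V+S- lay next to each other without overlap. The means, in the order given for Mmp9, were -2.13 ± 0.065, -2.17 ± 0.043, -0.98 ± 0.17 and -0.63 ± 0.12 (SD, n = 2).

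St14 was more abundant in the sorted cells than in the reference RNA in every sample. V-S+ gave log2 ratios of 0.93 and 1.06, V-S- gave 0.92 and 1.12, V+S+ gave 1.57 and 2.01, and V+S- gave 1.88 and 2.10. Venus-negative and Venus-positive samples were again separate, but V+S+ and V+S- overlapped. In the same order as before, the means were 1.00 ± 0.093, 1.02 ± 0.14, 1.79 ± 0.31 and 1.99 ± 0.16 (SD, n = 2).

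**Figure D1:**
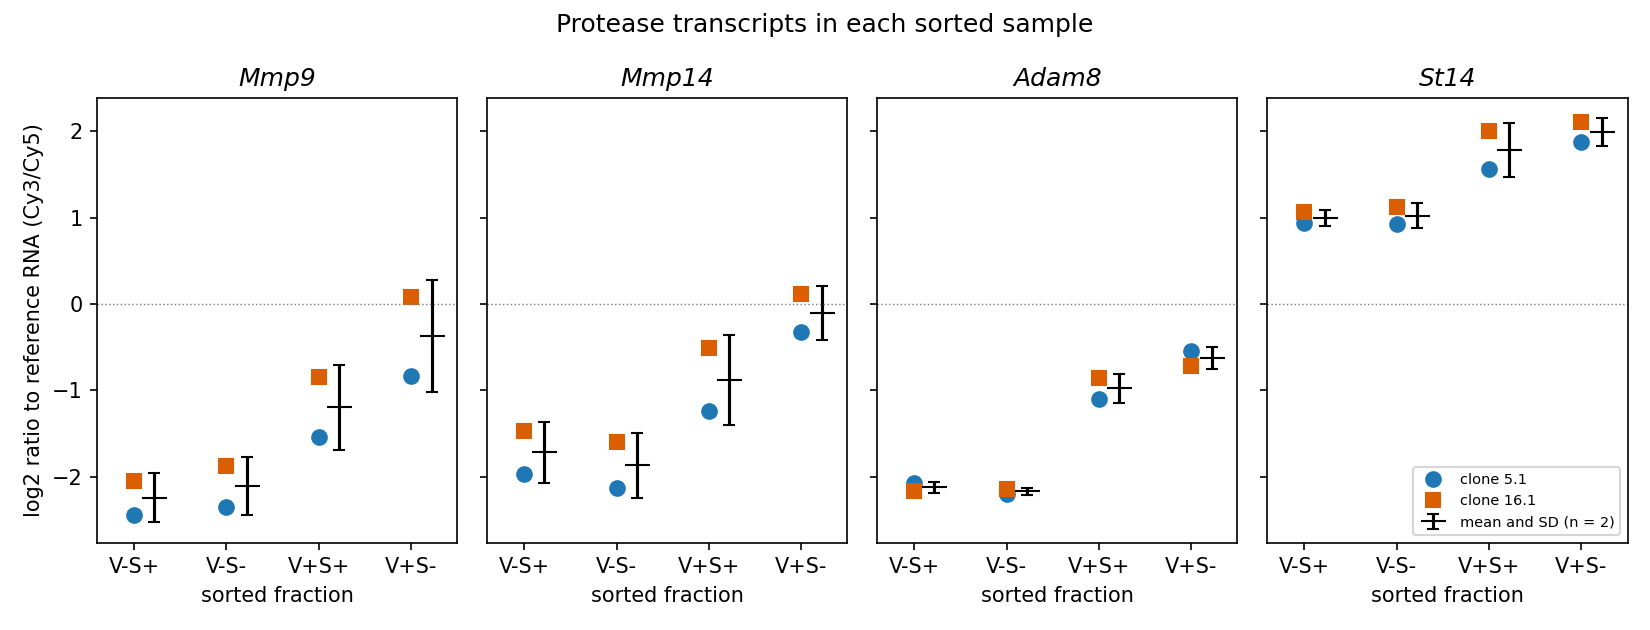
Log2 ratio of sample (Cy3) to reference RNA (Cy5) for each of the 4 transcripts in each sorted fraction. Circles are clone 5.1, squares are clone 16.1 and black bars are the mean and SD of the 2 clones; the Venus-negative samples of each gene, for St14 between 0.92 and 1.12, lie below all of its Venus-positive samples, and levels are not comparable between genes.

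The second St14 probe, which overlaps the first, gave 1.06 and 1.15 for V-S+ and 0.93 and 1.09 for V-S- (clone 5.1 first). For V+S+ it gave 1.52 and 1.98, and for V+S- 1.84 and 2.06. Both probes thus placed Venus-positive above Venus-negative samples, with r = 0.99 over the 8 samples, which share RNA and arrays. Its log2 difference between V+S- and V-S+ was 0.84 (SE 0.16, adjusted p = 0.0259 in limma), against 0.99 for the listed probe.

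V+S- was first set against V-S+, the Venus-positive cells without SSEA-1 against the Venus-negative cells that carry it. A probe was called where its adjusted p in limma (Benjamini-Hochberg over all probes tested) was below 0.05 and its change exceeded 1.5-fold. All 4 proteases were called higher in V+S-, where 5.73% of all probes tested, and 48.1% of the 1998 listed probes used here, were called higher. Mmp9 was 3.66-fold higher (log2 difference 1.87, SE 0.37, adjusted p = 0.0273), by 1.61 in clone 5.1 and 2.13 in clone 16.1 on the log2 scale. Its difference ranked 23 among the 29484 probes. Mmp14 was 3.06-fold higher (1.62, SE 0.32, adjusted p = 0.0275), by 1.65 in clone 5.1 and 1.58 in clone 16.1. Adam8 was 2.82-fold higher (1.497, SE 0.10, adjusted p = 0.0113), by 1.54 and 1.45 in the same order. St14 was 1.99-fold higher (0.99, SE 0.16, adjusted p = 0.0194), by 0.95 and 1.04. With clone as a block the count was again 4, against 8.87% of all probes. With the V-S+ sample of either clone, or the V+S- sample from clone 16.1, left out, none of the 4 was called and 0 of the 29484 probes were called higher, while over all samples left out in turn the log2 difference stayed between 1.41 and 2.33 for Mmp9, 1.36 and 1.87 for Mmp14, 1.41 and 1.58 for Adam8, and 0.88 and 1.10 for St14. Mmp9 and Mmp14 also lost their calls when V-S- of either clone was omitted, and Mmp14 when V+S- of clone 5.1 was. Adam8 alone was called with the authors' log10 values, where 306 of 25164 probes were called higher, and in the test without moderated variances, where 306 of 29484 were, against 1688 in the moderated test; with the authors' values the Mmp9 difference was 1.94.

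Among cells that lack SSEA-1, V+S- again exceeded V-S- at all 4 proteases, and all were called, where 6.3% of all probes were called higher and 53.1% of the listed probes used here. This comparison shares the V+S- samples with the one above. The log2 differences were 1.74 for Mmp9 (SE 0.37, adjusted p = 0.0299), 1.76 for Mmp14 (SE 0.32, adjusted p = 0.0214), 1.54 for Adam8 (SE 0.10, adjusted p = 0.0084) and 0.97 for St14 (SE 0.16, adjusted p = 0.0190), all in limma. Each gene was higher in both clones, with the clone values between 0.95 for St14 in clone 5.1 and 1.96 for Mmp9 in clone 16.1. The count was 4 with clone as a block too, against 8.96% of all probes. With the V-S- sample of either clone, or the V+S- sample from clone 16.1, left out, none of the 4 and none of the 29484 probes was called higher, and over all samples left out in turn the log2 difference lay between 1.28 and 2.20 for Mmp9, 1.49 and 2.03 for Mmp14, 1.46 and 1.63 for Adam8, and 0.86 and 1.08 for St14. Mmp9 also lost its call when V-S+ of either clone was omitted (adjusted p = 0.0584 in limma). Adam8 alone was called with the authors' values, where 487 of 25164 probes were called higher, and in the test without moderated variances, where 316 of 29484 were, against 1858 in the moderated test.

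Among cells that carry SSEA-1, both clones had higher values of each protease with Venus (V+S+ against V-S+), but the call depended on whether the fit had a term for clone. The log2 difference was 1.05 for Mmp9 (0.90 in clone 5.1 and 1.20 in clone 16.1), 0.84 for Mmp14 (0.73 and 0.96), 1.15 for Adam8 (0.98 and 1.31) and 0.79 for St14 (0.63 and 0.94). Every one of these values was larger than 1.5-fold in both clones. Without the clone term 0 of the 4 were called in limma, with adjusted p = 0.232 for Mmp9, 0.250 for Mmp14, 0.142 for Adam8 and 0.162 for St14. No probe of the array was called higher there (0%), 5514 had an unadjusted p below 0.05, and the test without moderated variances also called 0. With clone as a block 4 of 4 were called, where 3.87% of all probes were called higher. The 4 probes were taken from the listed ones, whose median log2 difference in this comparison was 0.33. The blocked adjusted p-values in limma were 0.0042 for Mmp9, 0.0032 for Mmp14, 0.0028 for Adam8 and 0.0034 for St14. The block stands for the slide as well as for the clone. Leaving out the V+S+ sample of clone 16.1 gave 0.70 for Mmp9 and 0.47 for Mmp14, and leaving out that of clone 5.1 gave 1.40 and 1.21.

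V+S+ lay between V-S+ and V+S- in the mean of each gene. As a share of the log2 distance from V-S+ to V+S-, V+S+ stood at 56.1% for Mmp9, with the same value in each clone, and at 52.2% for Mmp14 (44.1% in clone 5.1 and 60.7% in clone 16.1). It stood at 76.6% for Adam8 (63.8% and 90.1%) and at 79.3% for St14 (66.8% and 90.6%). In each clone both Adam8 and St14 were further along than Mmp9 and Mmp14; the difference between genes was not tested.

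The step from V+S+ to V+S-, the loss of SSEA-1 among Venus-positive cells, was 0.82 for Mmp9 (0.71 in clone 5.1 and 0.93 in clone 16.1) and 0.77 for Mmp14 (0.92 and 0.62). It was 0.35 for Adam8 (0.56 and 0.14) and 0.21 for St14 (0.31 and 0.098). All 8 values were positive, and those of Adam8 and St14 in clone 16.1 were small. When V+S+ of clone 5.1 was omitted, the St14 step turned to -0.015 and the Adam8 step was 0.23. That fit had no clone term, so that it set V+S+ of clone 16.1 against the mean of both V+S- samples. In limma without the clone term 0 of 4 were called, with adjusted p = 0.377, 0.338, 0.221 and 0.637 for Mmp9, Mmp14, Adam8 and St14. Of all probes 0% were called higher, 4429 had an unadjusted p below 0.05, and the test without moderated variances called 0. With clone as a block in limma, Mmp9 (adjusted p = 0.0143) and Mmp14 (adjusted p = 0.0077) were called, against 1.75% of all probes. Adam8 (adjusted p = 0.0703) and St14 (adjusted p = 0.154) were not. Over the listed probes used here the median step was 0.24. With the authors' values and the block, an alternative chosen after seeing the data, 0 of 4 and 0 of 25164 probes were called, and 5103 had an unadjusted p below 0.05. Over samples left out in turn the step ran from 0.36 to 1.28 for Mmp9 (the omitted V+S- sample being that from clone 16.1 and from clone 5.1) and from 0.40 to 1.14 for Mmp14 (the omitted V+S+ sample being that from clone 5.1 and from clone 16.1). The blocked 95% interval of the difference ran from 0.11 to 0.59 for Adam8 and from 0.010 to 0.40 for St14.

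Loss of SSEA-1 without Venus went with no call. The log2 difference between V-S- and V-S+ was 0.13 for Mmp9, -0.15 for Mmp14, -0.048 for Adam8 and 0.024 for St14, and all 4 adjusted p-values were 1.00 in limma. With clone as a block the 95% intervals ran from -0.16 to 0.42 for Mmp9, from -0.34 to 0.045 for Mmp14, from -0.29 to 0.19 for Adam8 and from -0.17 to 0.22 for St14. No probe was called higher (0%) in either fit, and 834 had an unadjusted p below 0.05 without the block and 2473 with it. The signs for Mmp9 and St14 turned under median centring in place of loess, which itself moved the median of all probes by -0.12. Relative to that median the differences were 0.088 for Mmp9, -0.24 for Mmp14, -0.13 for Adam8 and -0.073 for St14.

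Whether the Venus difference depended on SSEA-1 was tested as an interaction, the V+S- to V-S- difference less the V+S+ to V-S+ difference. It was 0.69 for Mmp9 (0.61 in clone 5.1 and 0.76 in clone 16.1), 0.92 for Mmp14 (1.08 and 0.75), 0.40 for Adam8 (0.68 and 0.12) and 0.18 for St14 (0.32 and 0.040). All of these values were positive, but the St14 value turned to -0.039 when V+S+ of clone 5.1 was omitted, in a fit without a clone term. In limma 0 of 4 passed an FDR of 0.05, with adjusted p between 0.606 for Adam8 and 0.922 for St14. Of all probes 0% passed in the positive direction, 2340 had an unadjusted p below 0.05, and the test without moderated variances called 0. With clone as a block Mmp14 passed (adjusted p = 0.0357), against 0.899% of all probes. The other 3 did not, with blocked adjusted p of 0.110 for Mmp9, 0.200 for Adam8 and 0.445 for St14. With the authors' values and the block none of the 4 and 0 of 25164 probes passed, and 3255 had an unadjusted p below 0.05. Over samples left out in turn the interaction ran from 0.23 to 1.15 for Mmp9 (without V+S- of clone 16.1 and of clone 5.1) and from 0.55 to 1.29 for Mmp14 (without V+S+ of clone 5.1 and of clone 16.1).

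**Figure D2:**
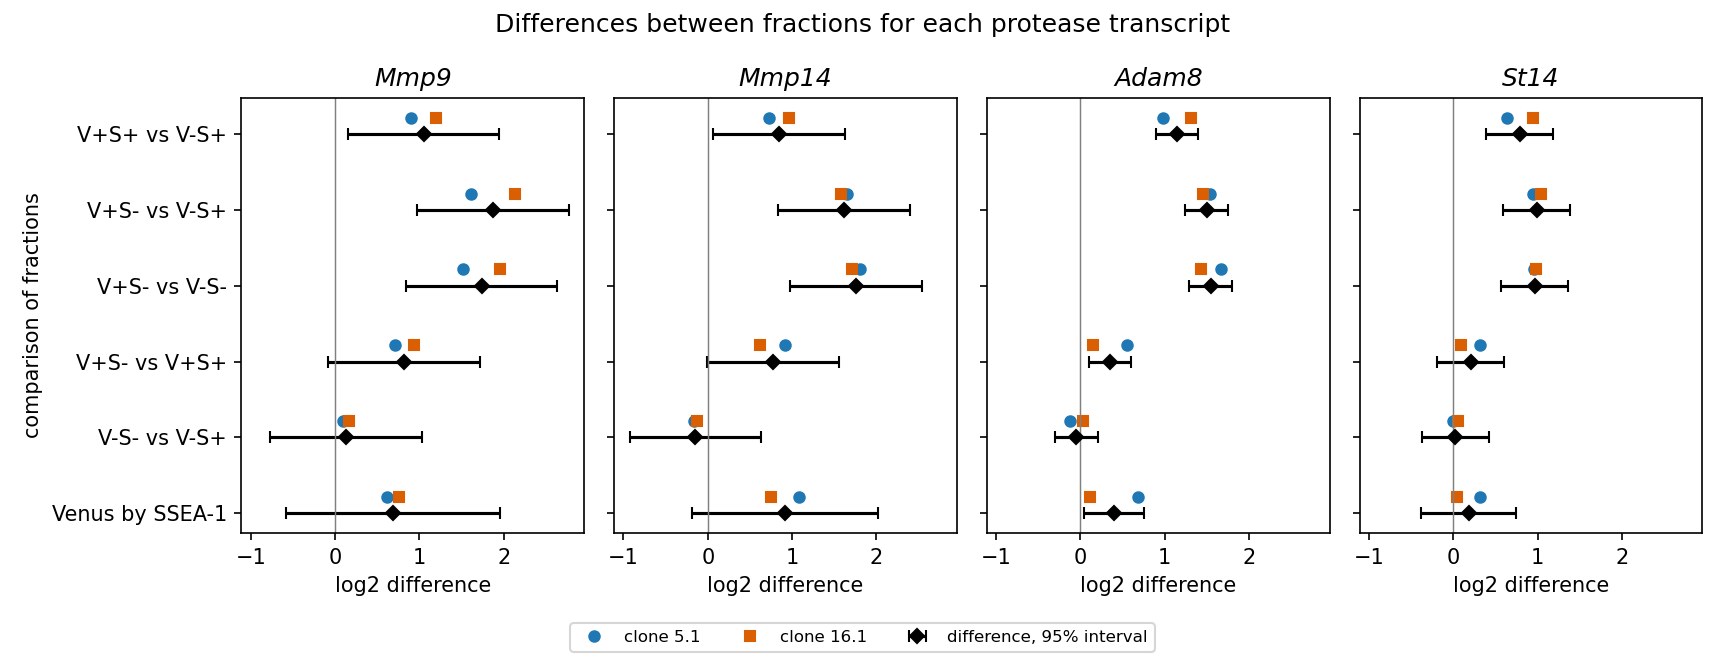
Log2 differences between fractions for the 4 transcripts, with the interaction of Venus and SSEA-1 at the bottom. Diamonds are the difference in the fit without a clone term with its 95% interval, and the circle and square above each are the values within clone 5.1 and clone 16.1; for V-S- against V-S+ the diamonds lie between -0.15 for Mmp14 and 0.13 for Mmp9, while those of V+S- against V-S+ lie between 0.99 for St14 and 1.87 for Mmp9.

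The clones were compared with fraction in the model. The 4 fractions of a clone, all from 1 line and 1 slide, served as its replicates. The SE and p-values here thus measure how the clone difference varies among fractions, not variation between lines, cultures or slides. Mmp9 was 1.54-fold higher in clone 16.1 than in clone 5.1 (log2 difference 0.62, SE 0.086, adjusted p = 0.0048 in limma) and was the 1 of 4 that was called, where 1.39% of all probes were called higher. It was higher in clone 16.1 in each fraction, by 0.40 (V-S+) and 0.48 (V-S-) without Venus and by 0.69 (V+S+) and 0.92 (V+S-) with it. Mmp14 passed the FDR but, at 1.47-fold, not the fold threshold (0.55, SE 0.057, adjusted p = 0.0025), and it too was higher in each fraction, by between 0.44 in V+S- and 0.74 in V+S+. St14 was 1.19-fold higher (0.25, SE 0.058, adjusted p = 0.0236), by between 0.13 and 0.44. Adam8 was not called (0.0076, adjusted p = 0.950), with a 95% interval of the difference from -0.16 to 0.18 and fraction values on both sides of 0. The Mmp9 call was lost with the Cy3 channel alone and in the test without moderated variances, while Mmp14 was called as well under median centring. Without the V+S- sample of either clone, Mmp9 fell below 1.5-fold (0.52) and Mmp14 was called in its place (0.59, adjusted p = 0.0167 in limma). The second St14 probe differed by 0.24 (SE 0.065, adjusted p = 0.0389 in limma).

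**Figure D3:**
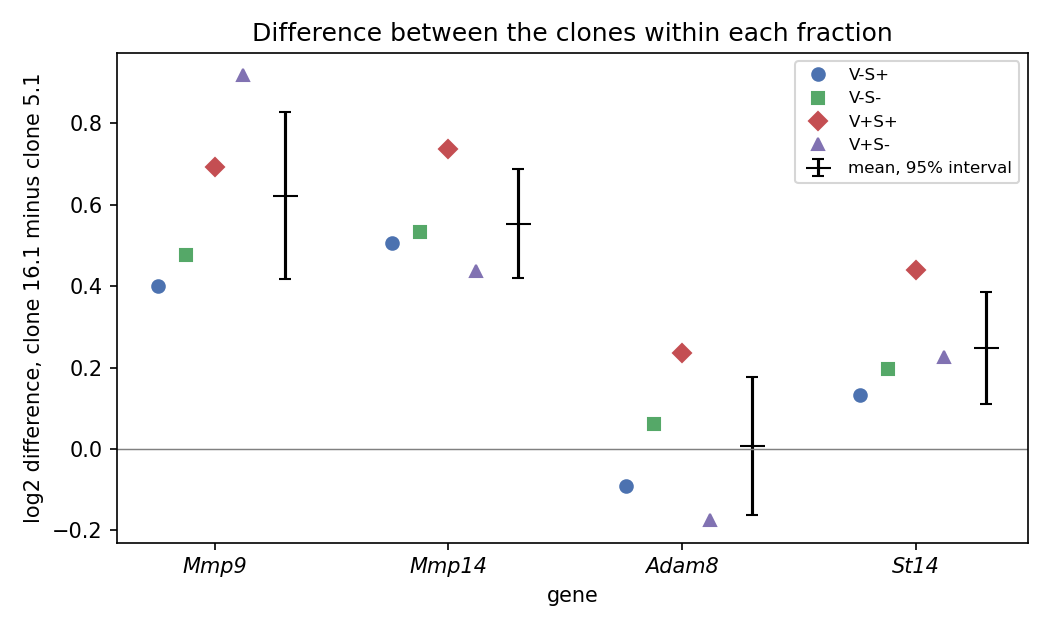
Log2 difference of clone 16.1 from clone 5.1 within each fraction (coloured points) and its mean with the 95% interval from the fit with fraction (black). The Mmp9 and Mmp14 points all lie above 0.4 and those of Adam8 lie on both sides of 0, from -0.18 in V+S- to 0.24 in V+S+.

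Across the 8 samples the 4 profiles ran close together. Pearson's r was 0.98 between Mmp9 and Mmp14, 0.96 between St14 and each of Mmp9, Mmp14 and Adam8, 0.91 between Mmp14 and Adam8 and 0.89 between Mmp9 and Adam8. These values describe 8 samples that share clones, slides and the reference RNA. Among the other 1997 listed probes used here, the profiles most like that of Mmp9 were Fstl1, Cdgap and Phc2 (r between 0.995 and 0.997). Those most like Mmp14 were Farp1, Furin and Cmtm3 (r between 0.998 and 0.999), those most like Adam8 were Artn, Ahnak and Arsa (r = 0.99 each), and those most like St14 were F2r, Ptpn14 and Bcar1 (r between 0.997 and 0.998). Furin and F2r belong to the lists of the proteolytic system described next.

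The wider system was described through 6 lists, of 113 genes besides the 4 proteases. The rows used of the supplementary list name a probe for 45 of them. The other 68, some of which may stand in rows not used here, were not assessed. Since that list was chosen on these arrays, the counts are not independent evidence of direction. Of the 45, 41 were called higher for V+S- over V-S+ and 0 lower, beside 48.1% of the 1998 listed probes used here and 5.73% of all probes. All 45 log2 differences were positive, with a median of 1.07, against 0.67 over those 1998 and 0.014 over all probes tested. In V+S+ against V-S+ the median was 0.48, against 0.33 over the 1998 listed probes, and 0 were called without the block and 16 with it, beside 3.87% of all probes with it. From V+S+ to V+S-, 0 were called without the block, as of all probes, and 23 were called higher with it, beside 1.75% of all probes. The median there was 0.60, against 0.24 over the listed probes. With the authors' values and the block 0 of 25164 probes were called. In V-S- against V-S+ 0 were called in limma with or without the block, and the median was -0.051, against -0.024 over the listed probes.

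Of 38 other metalloproteases 10 could be named, and 9 of these rose in V+S- over V-S+, with a median of 0.91. Adamts12 and Adamts4, which cut matrix proteoglycans or related matrix proteins, were higher by 1.91 (adjusted p = 0.0362 in limma) and 1.71 (adjusted p = 0.0141). Bmp1, the procollagen C-proteinase, was higher by 1.58 (adjusted p = 0.0198), and Mmp2, the gelatinase that Mmp14 activates, by 1.17 (adjusted p = 0.0391). Adamts1 did not reach 1.5-fold (0.44). In V+S+ against V-S+, with the block, Bmp1 (0.74, adjusted p = 0.0053) and Adamts12 (0.60, adjusted p = 0.0366) were called. Adamts9 stood at -0.16 there, and for V+S- over V+S+ 0 of the 10 were called without the block and 6 with it, beside 0% and 1.75% of all probes.

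Of 18 serine proteases and plasminogen system genes 6 could be named, and 5 rose in V+S- over V-S+. Furin, the convertase that activates pro-Mmp14, was higher by 1.46 (adjusted p = 0.0285 in limma), Plau, the urokinase that makes plasmin, by 1.19 (adjusted p = 0.0122), and its receptor Plaur by 1.15 (adjusted p = 0.0239). Plaur was already higher by 1.02 in V+S+ (adjusted p = 0.0037 with the block). Prss8, the partner of St14, had its highest values in V+S+. Against V-S+ it was higher by 0.61 in V+S+ (adjusted p = 0.0032 with the block in limma and 0.162 without it). V+S- exceeded V-S+ by 0.36 (adjusted p = 0.0042 with the block and 0.098 without it). The difference between V+S- and V+S+ was -0.25 (adjusted p = 0.0451 with the block and 0.419 without it). The last 2 differences were below 1.5-fold.

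Of 16 protease inhibitors 6 could be named, and all 6 rose in V+S- over V-S+ with a median of 0.88. Timp1 was higher by 0.81 (adjusted p = 0.0113 in limma) and Timp3 by 1.16 (adjusted p = 0.0224), both inhibitors of metalloproteases. In V+S+ against V-S+ 1 of the 6, Timp3, was called with the block (0.62, adjusted p = 0.0082). Of 11 cathepsins and calpains 5 could be named and 5 rose in V+S- over V-S+, among them Ctsl (0.97, adjusted p = 0.0267) and Capn2 (1.56, adjusted p = 0.0122), which are mainly lysosomal and cytoplasmic enzymes.

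Of 15 surface proteins and ligands that such enzymes cut 9 could be named, and 7 rose in V+S- over V-S+. Cd44, a hyaluronan receptor shed by Mmp14, was higher by 1.41 (adjusted p = 0.0314 in limma), F2r, a thrombin receptor, by 1.41 (adjusted p = 0.0247) and the EGF receptor ligand Areg by 1.13 (adjusted p = 0.0187). F2rl1, the receptor that St14 can activate, was called in V+S+ over V-S+ with the block (0.88, adjusted p = 0.0053) but missed 1.5-fold in V+S- over V-S+ (0.55) and differed by -0.34 between V+S- and V+S+. Of 15 basement membrane and matrix proteins 9 could be named and 9 rose in V+S- over V-S+, with a median of 1.10. The collagen IV chains Col4a1 and Col4a2 were higher by 1.24 (adjusted p = 0.0122) and 1.07 (adjusted p = 0.0172), and Thbs1 by 1.78 (adjusted p = 0.0174).

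**Figure D4:**
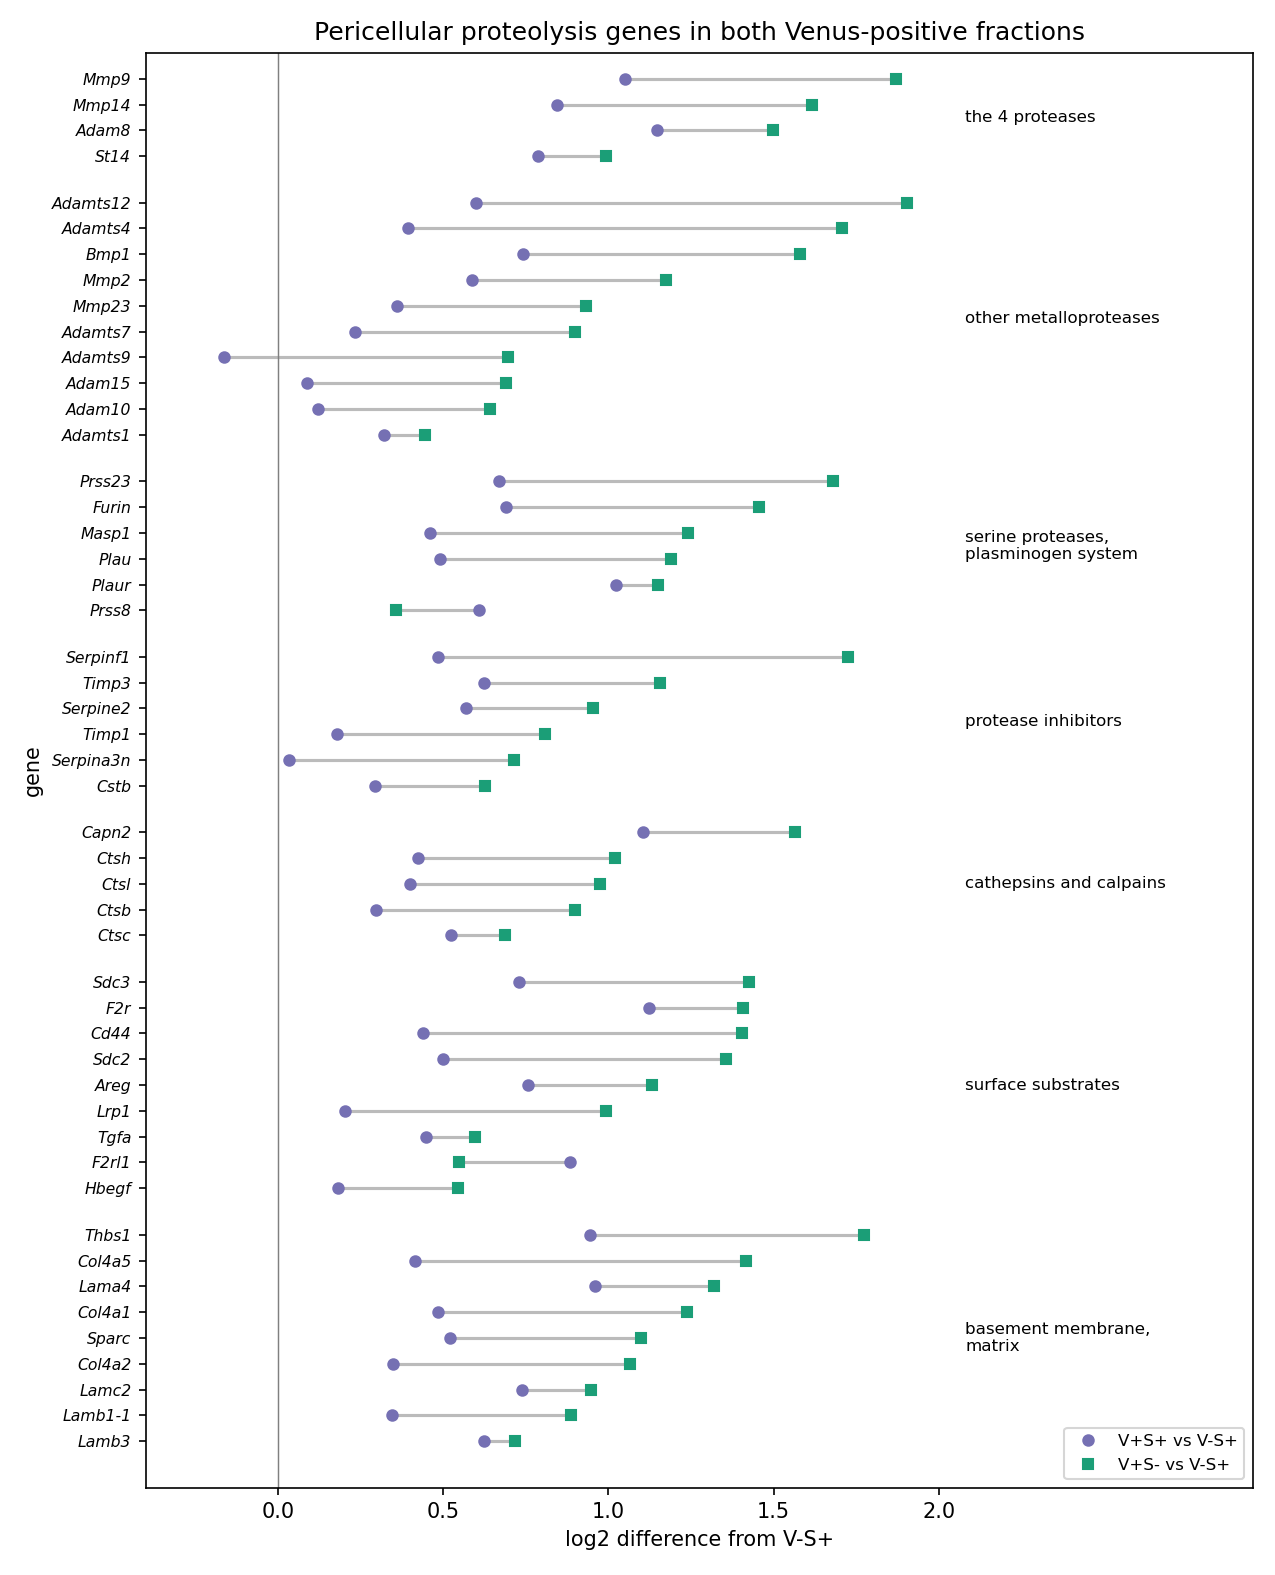
Log2 difference from V-S+ in V+S+ (circles) and in V+S- (squares) for the 4 proteases and the 45 named genes of the 6 lists; the comparisons share the V-S+ samples. The squares lie to the right of the circles for 47 of 49 genes, the exceptions being Prss8 and F2rl1.

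Markers of cell types were also called between V+S- and V-S+. Of 14 primitive endoderm markers 8 could be named and 7 were called higher for V+S- over V-S+, beside 5.73% of all probes and 48.1% of the listed probes used here, from which the named markers come; their mean log2 ratio was between -1.48 and -1.30 in the Venus-negative samples, -1.13 and -0.74 for V+S+, and -0.31 and -0.28 for V+S-. Of these 8, Col4a1, Col4a2 and Lamb1-1 were also counted among the basement membrane proteins above, as was Sparc, a parietal endoderm marker. Of 5 parietal endoderm markers 4 could be named and 4 were called higher, with a mean between -2.88 and -2.62 in the Venus-negative samples and of -1.54 and -1.19 in V+S-. The 3 named of 8 pluripotency markers (Pou5f1, Nanog and Dppa3) were called lower for V+S- against V-S+, as were 377 of all 29484 probes, with a mean between 1.61 and 1.89 in the Venus-negative samples and of 0.72 and 0.44 in V+S-. Of 5 trophoblast markers 2 could be named (Gata3 and Krt7), and both were called higher in V+S-, with a mean between -1.15 and -0.73 in the Venus-negative samples and of 0.28 and 0.038 in V+S-. In V+S+ against V-S+, 4 of 4 proteases and 3.87% of all probes were called higher with the block. So were 1 of the 8 primitive endoderm, 0 of the 4 parietal endoderm and 0 of the 2 trophoblast markers, and none of them without it. All of these markers had positive log2 differences there. Their medians were 0.37, 0.38 and 0.48 in that order, against 0.33 over the listed probes. Some passed the FDR with the block but not 1.5-fold, such as Dab2 (0.47), Sparc (0.52) and Vim (0.58). Others passed neither, such as Gata6 (0.17). Proteases and markers were not tested against each other. Nanog (-0.72, adjusted p = 0.0213 with the block in limma) and Dppa3 (-1.37, adjusted p = 0.0058) were called lower with the block, while Pou5f1 stood at 0.22 and was not called. None of the mesoderm, neuroectoderm or macrophage markers could be named here. The part of these shifts in the protease values was not tested.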

How the data were processed

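RNA of 4 sorted fractions from 2 clones (8 samples) was measured on two-colour Agilent arrays. The authors deposited 16 scanner files holding the intensity of every spot in both channels (each array scanned 2 times) and their own log10 values for 25164 probes. The deposited log10 values, centred per probe, matched the ratios of the scanner's processed signals, and the level each probe was set to is not given in the sources used here. The array design number in the file headers differs from that in the study's methods. Deposited comparisons of the authors, fold changes and p-values beside gene names in the supplementary list, were not used; 1998 rows of that list were read for symbols only, and its further rows were not used here.

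Mean signals were corrected with normexp (offset 50), normalized by loess within each scan with control spots at weight 0, and averaged over scans (limma 3.58.1, R 4.3.3). Spots marked as outliers, a median of 3 in each file, were left out. The 29484 probes whose Cy3 signal was well above background throughout 1 or more fractions, and which had no missing sample, were fitted with fraction as the only term (lmFit, eBayes, Benjamini-Hochberg). The number of arrays limits the precision. Clone was added as a replicate block in a second fit: the 4 fractions of a number come from the same cell line, and deviations of a clone were correlated between fractions across probes (r between 0.59 and 0.81 over 6 pairs of fractions). Scripts were tested on simulated data.

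The genes and lists were chosen with earlier results of these data known. Named are the 4 members, list genes that the supplementary list pairs with a probe, and the 3 most similar profiles per member. 1 gene of the planned lists is not reported here. Promoters came from a RefSeq table (GRCm38.p6). Alternatives covered the signal used, background correction, centring, Cy3 alone, filters, single scans and the authors' values. They also covered the block, variance moderation, the fold threshold and each sample left out. For comparisons of fractions, the fits with a sample left out had no clone term. Differences between the clones therefore entered them.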

Additional observations from a re-analysis of the deposited data

Results flagged for a closer look

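For Mmp14, the difference that went with loss of SSEA-1 had opposite signs in Venus-negative and Venus-positive cells, in both clones. The log2 difference between V-S- and V-S+ was -0.15, with -0.16 in clone 5.1 and -0.13 in clone 16.1, and that between V+S- and V+S+ was 0.77, with 0.92 and 0.62. The difference between them was tested as the interaction (0.92, adjusted p = 0.676 in limma, and 0.0357 with clone as a block). The negative difference alone did not pass in either fit. Its sign turned when either the V-S- sample of clone 5.1 or the V-S+ sample of clone 16.1 was left out. Such a fit had no clone term and set 1 clone against the mean of both, so that the difference between the clones entered it.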

How the results depend on the processing

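With clone as a replicate block (samples paired by clone), the number of the 4 proteases called rose from 0 to 4 in V+S+ against V-S+, from 0 to 2 in V+S- against V+S+ and from 0 to 1 for the interaction; it changed no other count. With the authors' log10 values and the replicate block, chosen after seeing the data, the count in V+S+ against V-S+ was 4. In V+S- against V-S+ and against V-S-, 4 fell to 1 with the authors' log10 values and to 1 in the unmoderated test, and lay between 0 and 4 when 1 sample was left out. For the clones, 1 became 2 with median centring, 0 with Cy3 alone and 0 in the unmoderated test, and without the V+S- sample of either clone it stayed 1 with Mmp14 called in place of Mmp9. The causes were not tested.

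Of 572 alternative values for single genes, 492 kept their direction and their side of the threshold, and 19 turned sign, each of them at most 0.21 in size before. For Adam8 between clones these were -0.016 with scanner software signals, -0.027 with Cy3 alone and -0.017 with the authors' values, and the range with 1 sample left out was -0.069 to 0.069. For V-S- against V-S+ with median centring, Mmp9 was -0.037 and St14 -0.20; St14 was also -0.034 with Cy3 alone and -0.013 in the first scan. With 1 sample left out, that difference ran from -0.11 to 0.37 for Mmp9, from -0.41 to 0.12 for Mmp14 and from -0.074 to 0.12 for St14. With 1 sample left out, Adam8 ran from 0.23 to 0.47 in V+S- against V+S+. For St14 the range was -0.015 to 0.43 in V+S- against V+S+ and -0.039 to 0.40 for the interaction; both minima came without the V+S+ sample of clone 5.1. Mmp9 had the lowest signal over background of the 4 probes.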
